A study of Bos taurus with 6 samples.

Results

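The miR-30 family was followed in extracellular vesicles (EVs) released by bovine granulosa cells, the somatic cells that line the ovarian follicle and feed the oocyte. Its members were taken by name, as every listed miRNA called bta-miR-30 followed by a letter from a to f with any arm suffix. This gave 6 members of the 512 miRNAs listed in each library, namely bta-miR-30a-5p, bta-miR-30b-5p, bta-miR-30c, bta-miR-30d, bta-miR-30e-5p and bta-miR-30f. No opposite-arm product of any member was listed.

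Granulosa cells from slaughterhouse ovaries, aspirated from follicles of 3 to 6 mm, were first grown at 37 °C in medium with exosome-depleted serum. They were then either left at 37 °C (control-EVs, 3 libraries) or moved to 42 °C (HS-EVs, 3 libraries) for 24 h, and the small RNA of the EVs precipitated from the spent medium was sequenced with unique molecular identifiers (UMIs). The labels call the libraries biological replicates without saying which ovaries or cultures each came from. The p-values therefore rest on the spread between these libraries only, which the main fit pools in part over all miRNAs. Animal age and breed were not given in the sources used here, and because only miRNAs were listed, the granulosa cell identity could not be checked against its defining transcripts.

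MicroRNAs of the miR-30 family share one seed, the stretch near the 5′ end that pairs with target transcripts, and differ further along the molecule. They therefore can repress overlapping sets of targets, among which SNAI1, a driver of epithelial to mesenchymal transition, and BECN1, a regulator of autophagy, are well known. In mammals the family is made from pairs of neighbouring genes that arose by duplication, and its members are commonly found in granulosa cells and follicular fluid. In the RefSeq annotation of assembly ARS-UCD2.0, each of the 6 members matched 1 gene. MIR30D lay beside MIR30B with no other listed gene between them. MIR30C lay beside MIR30E, both inside the span of NFYC, which encodes a subunit of the trimeric transcription factor NF-Y. MIR30A lay inside the span of LOC132346186, and MIR30F was its nearest miRNA gene. The authors mapped to another assembly, so no positions are given, and the sequences themselves were not analysed here.

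The deposited values are normalized read counts, scaled by the authors with the trimmed mean of M-values (TMM). In every library each value was the smallest nonzero value times a whole number, and with that smallest value set to 1 read the libraries held between 274434 and 2360980 reads. In all 6 libraries this is more than the study's own tally of reads on annotated miRNAs, for a cause that was not tested, so that read counts are on the scale of the deposited values and intervals made from them may be too narrow. A single miRNA, bta-miR-1246, held between 59.9% and 98.6% of these reads. HS-EVs replicate 1 stood apart, with the most reads in all, the highest share of bta-miR-1246 and the fewest reads on other miRNAs (34141, against 73569 to 235634 in the other libraries). In that library 1 read was worth 4.11 normalized counts, against 0.697 to 1.98 elsewhere.

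The family was a moderate part of the EV miRNAs, and 3 members carried nearly all of it. In control-EVs replicates 1, 2 and 3, the 6 members together had 1011, 2688 and 775 reads. In HS-EVs replicates 1, 2 and 3 they had 262, 1845 and 1109 reads. Leaving bta-miR-1246 out of the total, the family took 1.32%, 1.14% and 1.05% across control-EVs (replicates 1 to 3; 95% Wilson intervals 1.24% to 1.40%, 1.10% to 1.18% and 0.982% to 1.13%). It took 0.767%, 1.49% and 1.28% across HS-EVs (0.680% to 0.866%, 1.43% to 1.56% and 1.21% to 1.36%). Such intervals hold only the error of counting and take each recovered read as a separate molecule. The groups overlapped, since the lowest and the highest library were both HS-EVs. The mean was 1.17% ± 0.136 for control-EVs against 1.18% ± 0.373 for HS-EVs (SD, n = 3 each). The difference (HS-EVs minus control-EVs) was 0.00913 percentage points, and its sign depended on the library left out. It was 0.216 without HS-EVs replicate 1 and 0.0832 without control-EVs replicate 1. Below 0 were the differences without HS-EVs replicate 2 (-0.148), HS-EVs replicate 3 (-0.0402), control-EVs replicate 3 (-0.0498) and control-EVs replicate 2 (-0.0061). As a percentage of all reads, bta-miR-1246 included, the difference was -0.123.

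The members fell into abundant, low and barely sampled miRNAs. The study counted a miRNA as detected in a group if 2 or more of the 3 libraries reached a normalized count of 10, and by that measure 4 members were detected in both groups, namely bta-miR-30d, bta-miR-30e-5p, bta-miR-30a-5p and bta-miR-30c. The other 2, bta-miR-30b-5p and bta-miR-30f, were detected in neither group, although each had at least 1 read in all 6 libraries. By mean normalized count, the members ranked 31, 48, 51, 143, 206 and 244 of the 512 miRNAs, in the order bta-miR-30d, bta-miR-30e-5p, bta-miR-30a-5p, bta-miR-30c, bta-miR-30b-5p and bta-miR-30f. The plot of the members by library shows this order and the spread of each group.

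**Figure D1:**
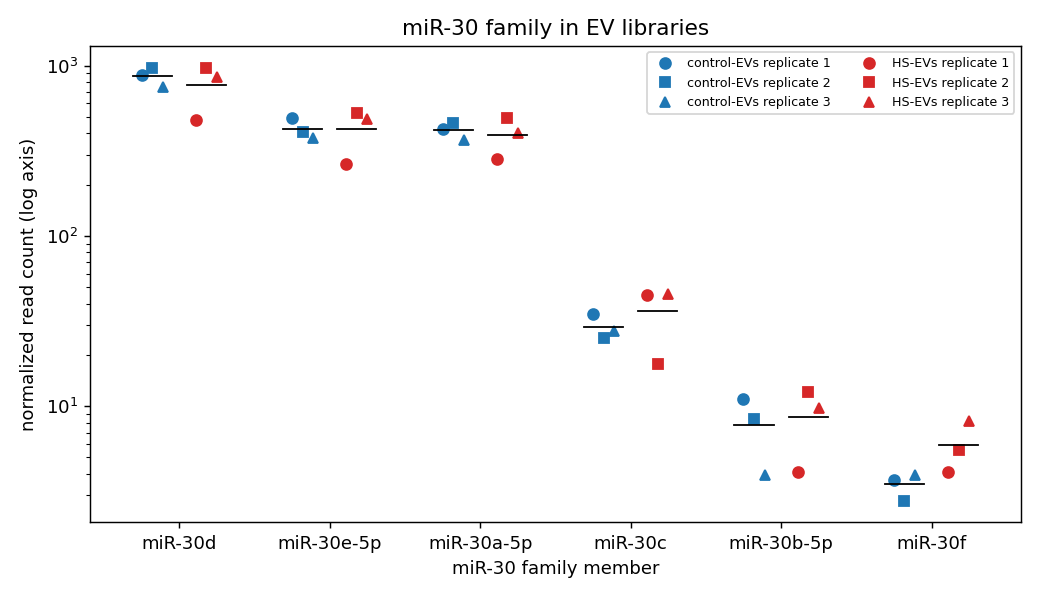
Normalized read counts (log axis) of the 6 miR-30 members in the 3 control-EVs libraries (blue) and 3 HS-EVs libraries (red); symbols mark replicates and black lines the group means. For bta-miR-30d, bta-miR-30e-5p and bta-miR-30a-5p the lowest point is HS-EVs replicate 1, and on these TMM-scaled values the groups overlap in every member but bta-miR-30f.

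The most abundant member was bta-miR-30d, known outside the cell as a miRNA that human endometrium secretes and the embryo takes up. Its normalized counts were 887, 974 and 753 across control-EVs (replicates 1 to 3) and 477, 972 and 854 across HS-EVs. One HS-EVs library, replicate 1, lay below all the others, and the remaining 5 libraries overlapped. The mean was 871 ± 111 for control-EVs against 768 ± 259 for HS-EVs (SD, n = 3 each). The log2 fold change was -0.24 (standard error 0.46, 95% confidence interval -1.28 to 0.80, adjusted p = 0.921 from limma). Without HS-EVs replicate 1 it was 0.07.

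Next came bta-miR-30e-5p. It had normalized counts of 494, 407 and 377 in control-EVs and 263, 530 and 487 in HS-EVs (replicates 1 to 3 in each case). Again HS-EVs replicate 1 was the lowest library, while HS-EVs replicate 2 was the highest. The group means were nearly equal, at 426 ± 60.5 for control-EVs against 427 ± 144 for HS-EVs (SD, n = 3 each). The log2 fold change was -0.05 (standard error 0.47, 95% confidence interval -1.09 to 0.99, adjusted p = 0.974 from limma), and 0.26 without HS-EVs replicate 1.

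The third abundant member, bta-miR-30a-5p, is known for repressing BECN1. Its normalized counts were 426, 457 and 366 in control-EVs and 284, 492 and 403 in HS-EVs (replicates 1 to 3). The groups overlapped, with the lowest and the highest value both in HS-EVs. The mean was 416 ± 46.7 for control-EVs against 393 ± 104 for HS-EVs (SD, n = 3 each). This came to a log2 fold change of -0.11 (standard error 0.44, 95% confidence interval -1.10 to 0.87, adjusted p = 0.955 from limma). Without HS-EVs replicate 1 it was 0.10.

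An order of magnitude lower stood bta-miR-30c, a known repressor of the matrix protein gene CTGF in the heart. It had 34.9, 25.1 and 27.7 normalized counts in control-EVs, from 19, 36 and 14 reads. In HS-EVs it had 45.2, 17.6 and 45.6, from 11, 16 and 28 reads. The control-EVs libraries thus lay between the HS-EVs libraries, of which 2 were higher and 1 lower than all of them. The log2 fold change was 0.19 (standard error 0.51, 95% confidence interval -0.94 to 1.32, adjusted p = 0.952 from limma). It was -0.02 without HS-EVs replicate 1 and -0.03 without HS-EVs replicate 3.

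Few reads stood behind bta-miR-30b-5p, a miRNA known in melanoma, together with miR-30d, for repressing the glycosyltransferase gene GALNT7. It had 11.0, 8.37 and 3.95 normalized counts in control-EVs, from 6, 12 and 2 reads. In HS-EVs it had 4.11, 12.1 and 9.78, from 1, 11 and 6 reads. Both groups held high and low libraries, and 3 reads, the floor below which a value was not told from 0, were not reached in control-EVs replicate 3 or in HS-EVs replicate 1. The log2 fold change was 0.12 (standard error 0.55, 95% confidence interval -1.10 to 1.35, adjusted p = 0.958 from limma). It changed sign when any of control-EVs replicate 3 (-0.24), HS-EVs replicate 2 (-0.15) or HS-EVs replicate 3 (-0.0086) was left out.

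The scarcest member, bta-miR-30f, was the only one of the 6 whose groups did not overlap. It had 3.67, 2.79 and 3.95 normalized counts in control-EVs, from 2, 4 and 2 reads. In HS-EVs it had 4.11, 5.50 and 8.15, from 1, 5 and 5 reads. The gap between the groups lay between 3.95, which was 2 reads of control-EVs replicate 3, and 4.11, which was a single read of HS-EVs replicate 1. Groups without overlap were found for 6.45% of the 512 miRNAs. When reads were divided by DESeq2's size factors, the groups of bta-miR-30f overlapped (highest control-EVs value 2.623, lowest HS-EVs value 2.621), and they overlapped as a percentage of all reads too. As a percentage of reads other than bta-miR-1246 they stayed apart (highest control-EVs value 0.00272%, lowest HS-EVs value 0.00293%). The log2 fold change was 0.60 (standard error 0.45, 95% confidence interval -0.40 to 1.60, adjusted p = 0.873 from limma), and 0.38 to 0.80 with each library left out in turn. No library had more than 5 reads, and the floor of 3 reads was not reached in control-EVs replicates 1 and 3 or in HS-EVs replicate 1. What size of difference could be seen at this depth was not tested.

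Between HS-EVs and control-EVs, 0 of the 6 members passed the threshold of the study, an adjusted p-value up to 0.3 and a log2 fold change of at least 1 in either direction. Among all 512 miRNAs limma called 0 (0%) as well. At an unadjusted p-value of 0.05 or less, limma found 0 members and 25 of the 512 miRNAs (4.88%). On recovered reads, the quasi-likelihood test of edgeR called 3 of the 512 and DESeq2 called 0, and in neither was a member called. The median log2 fold change of the 6 members was 0.04, beside 0.01 over all 512 miRNAs, with 3 members above 0 and 3 below. For the 3 abundant members, the intervals ran from 0.413-fold at the lowest to 1.98-fold at the highest. limma draws the variance of each miRNA toward a value shared by all 512, scarce ones included. Changes within these bounds could thus not be told from none in this fit, and the bounds are not the members' own spread alone. A lower number of vesicles carrying a miRNA and fewer copies per vesicle cannot be told apart in these values.

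Scaling by all reads moved every member down, along with the median of all miRNAs. When reads were scaled by all reads on miRNAs, bta-miR-1246 included, the log2 fold changes of the 6 members lay between -1.76 and -0.31, with all 6 below 0. Their median was then -1.40, and the median of all 512 miRNAs moved from 0.01 to -0.75. As a share of all reads, the family took 0.203%, 0.457% and 0.282% in control-EVs (replicates 1 to 3). It took 0.0111%, 0.364% and 0.199% in HS-EVs, so that HS-EVs replicate 1 lay far below the other libraries. This scaling was not refitted without that library. When reads were scaled by those on miRNAs other than bta-miR-1246, the members lay between -0.13 and 0.64, with 4 above 0. Thus bta-miR-30d and bta-miR-30a-5p were below 0 under each scaling, and the sign of the other 4 depended on it. None of these fits called a member. The plot of fold changes sets the scalings side by side.

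**Figure D2:**
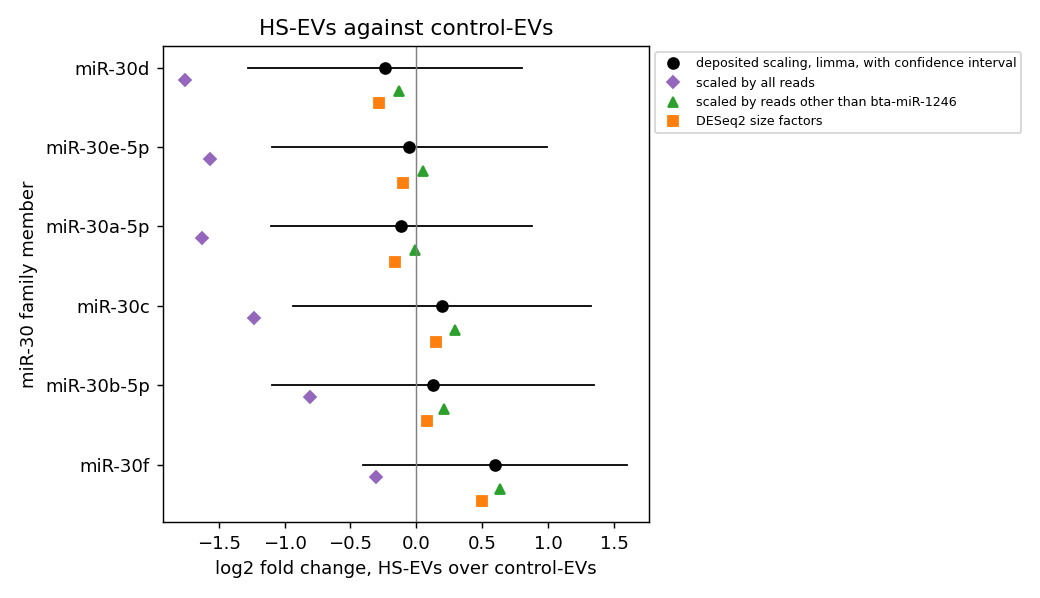
Log2 fold changes of HS-EVs over control-EVs for the 6 members. Black points and lines are limma's estimate and 95% confidence interval on the deposited values, and coloured symbols are the estimates after other scalings; all 6 intervals include 0, and scaling by all reads places every member below 0.

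Within the family, shares do not depend on how a library was scaled. Of the family's reads, bta-miR-30d took 47.8%, 52.0% and 49.2% across control-EVs (replicates 1 to 3) and 44.3%, 47.9% and 47.2% across HS-EVs. Its mean share was 49.6% ± 2.14 for control-EVs against 46.5% ± 1.94 for HS-EVs (SD, n = 3 each), with overlapping groups (two-sided exact permutation test, p = 0.2, where 3 libraries against 3 allow no p below 0.1). bta-miR-30e-5p took 24.3% ± 2.48 for control-EVs against 25.8% ± 1.29 for HS-EVs (SD, n = 3 each; two-sided exact permutation test, p = 0.5). This difference of 1.52 percentage points was 0.212 without control-EVs replicate 2, 0.962 without HS-EVs replicate 3 and 2.67 without control-EVs replicate 1. On the summed reads of each group it was 2.96. For bta-miR-30d the difference (HS-EVs minus control-EVs) of -3.16 percentage points ranged from -4.09 to -1.99 with each library left out in turn, and was smallest in size without control-EVs replicate 2. bta-miR-30a-5p took 23.7% ± 0.737 against 24.3% ± 2.03 (SD, n = 3 each; two-sided exact permutation test, p = 0.8). In each of the 6 libraries, these 3 members together held between 95.04% and 98.3% of the family, and bta-miR-30d was the most abundant of them.

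The 3 scarce members shared what was left. bta-miR-30c took 1.88%, 1.34% and 1.81% of the family in control-EVs and 4.20%, 0.867% and 2.52% in HS-EVs (replicates 1 to 3; two-sided exact permutation test, p = 0.5). The difference of the means, 0.855 percentage points, was 0.021 without HS-EVs replicate 1 and was 1.69 without HS-EVs replicate 2. On the summed reads of each group it was 0.168. For bta-miR-30c, the 95% Wilson confidence intervals of HS-EVs replicate 1 (2.36% to 7.36%) and HS-EVs replicate 2 (0.535% to 1.40%) did not overlap. As these intervals may be too narrow, a difference beyond counting error is not settled. The libraries of 1 group were farther apart than the group means. bta-miR-30b-5p took between 0.258% and 0.596% in all 6 libraries (p = 0.6 by the exact permutation test). bta-miR-30f took 0.198%, 0.149% and 0.258% in control-EVs and 0.382%, 0.271% and 0.451% in HS-EVs (p = 0.1 by the exact permutation test, the lowest reachable). The Wilson intervals of its share overlapped among all 6 libraries. In all, 6 shares were compared.

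**Figure D3:**
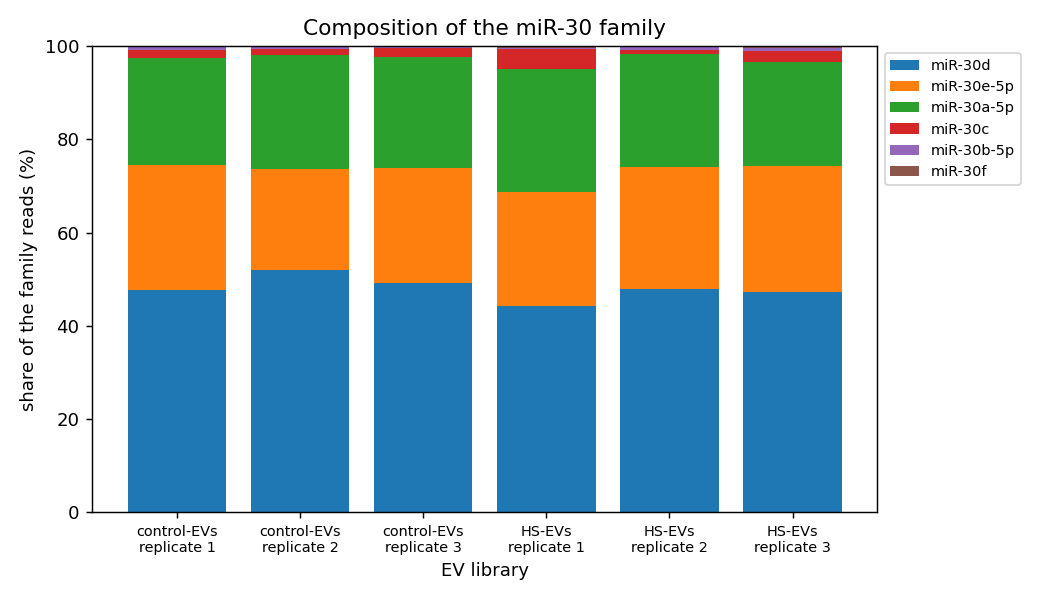
Share of the family's reads (%) taken by each member, 1 bar per EV library. bta-miR-30d takes 44.3% to 52.0% of each bar, bta-miR-30e-5p 21.7% to 27.0% and bta-miR-30a-5p 22.3% to 26.3%, and bta-miR-30b-5p and bta-miR-30f, each under 1%, form the thin top.

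In the order of mean levels, not every pair of neighbours was apart. Per library, bta-miR-30d exceeded bta-miR-30e-5p in 6 of 6 libraries, by 1.92-fold on average (mean log2 ratio 0.94 ± 0.17, SD, n = 6). bta-miR-30e-5p and bta-miR-30a-5p did not differ beyond their spread, with a mean log2 ratio of 0.06 ± 0.18 (SD, n = 6) and bta-miR-30e-5p ahead in 4 libraries and behind in 2. bta-miR-30a-5p exceeded bta-miR-30c by 12.9-fold (log2 ratio 3.69 ± 0.76, SD, n = 6) and bta-miR-30c exceeded bta-miR-30b-5p by 4.13-fold (2.05 ± 1.02, SD, n = 6), each in 6 of 6 libraries. bta-miR-30b-5p lay above bta-miR-30f in 4 libraries and level with it in 2, the mean log2 ratio of 0.76 being no larger than its SD of 0.76. These are ratios of reads. Members of this family are nearly alike in sequence, the authors' mapping allowed a mismatch, and reads could have been split between them. How well each sequence was captured in the library was not measured either.

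Each pair of neighbouring genes held 1 of the 3 abundant and 1 of the 3 scarce members. Of the reads on bta-miR-30b-5p and bta-miR-30d together, the scarcer bta-miR-30b-5p held between 0.522% and 1.23% in the 6 libraries. Of those on bta-miR-30f and bta-miR-30a-5p, bta-miR-30f held between 0.606% and 1.98%. Of those on bta-miR-30c and bta-miR-30e-5p, bta-miR-30c held between 3.21% and 14.7%. In no library and in no pair did the scarcer member reach the level of its neighbour. The MIR30B and MIR30D pair carried 50.1% ± 2.10 of the family for control-EVs against 47.0% ± 2.05 for HS-EVs (SD, n = 3 each; two-sided exact permutation test, p = 0.2). The MIR30C and MIR30E pair carried 26.0% ± 2.76 against 28.4% ± 1.27 (SD, n = 3 each; two-sided exact permutation test, p = 0.2), and the MIR30F and MIR30A pair 23.9% ± 0.722 against 24.6% ± 2.001 (SD, n = 3 each; two-sided exact permutation test, p = 0.8).

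The balance inside each pair was compared between the groups as the log2 ratio of the scarcer to the more abundant member. For bta-miR-30b-5p over bta-miR-30d it was -6.92 ± 0.62 for control-EVs against -6.54 ± 0.28 for HS-EVs (SD, n = 3 each), a difference of 0.38 (two-sided exact permutation test, p = 0.4), which was 0.052 without control-EVs replicate 3 and 0.67 without control-EVs replicate 1. For bta-miR-30c over bta-miR-30e-5p it was -3.87 ± 0.13 against -3.62 ± 1.20 (SD, n = 3 each), a difference of 0.25 (two-sided exact permutation test, p = 0.7), which became -0.29 without HS-EVs replicate 1. In control-EVs, bta-miR-30c held 6.60%, 5.82% and 6.83% of this pair, a narrow range, whereas in HS-EVs it held 14.7%, 3.21% and 8.56%. For bta-miR-30f over bta-miR-30a-5p the log2 ratio was -6.92 ± 0.42 against -6.07 ± 0.43 (SD, n = 3 each), a difference of 0.84 with groups that did not overlap (two-sided exact permutation test, p = 0.1, the lowest reachable). It rested on 8 reads of bta-miR-30f in all control-EVs libraries and 11 in all HS-EVs libraries.

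**Figure D4:**
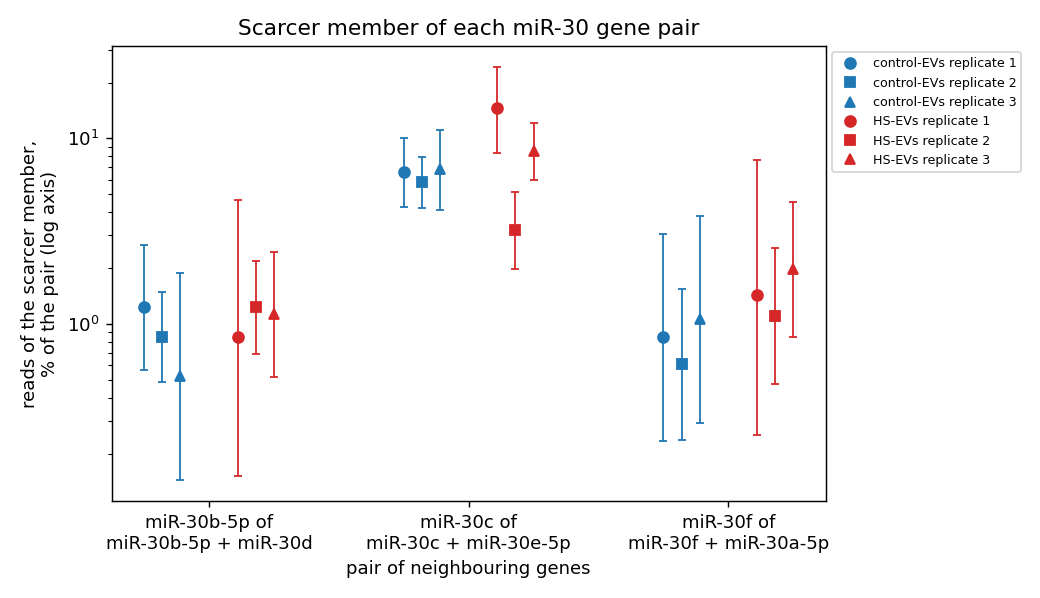
Reads of the scarcer member as a percentage of its gene pair (log axis), for the 3 control-EVs libraries (blue) and 3 HS-EVs libraries (red); bars are 95% Wilson confidence intervals, which cover counting error only. Apart from bta-miR-30c, whose HS-EVs libraries run from 3.21% to 14.7%, the intervals within a pair overlap among all 6 libraries.

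As a share of the reads other than bta-miR-1246, the 3 abundant members were all lowest in HS-EVs replicate 1 and all highest in HS-EVs replicate 2, whereas by normalized count bta-miR-30d was highest in control-EVs replicate 2. On the log2 scale and centred on the mean of the 6 libraries, these shares lay at -0.70, -0.62 and -0.45 in HS-EVs replicate 1 (bta-miR-30d, bta-miR-30e-5p and bta-miR-30a-5p) and at 0.37, 0.44 and 0.39 in HS-EVs replicate 2. In control-EVs replicate 2 they parted, with bta-miR-30d at 0.10 and bta-miR-30e-5p at -0.22. The distance between the highest and the lowest of the 3 was 0.06 to 0.32 within a library. The summed family ranged from -0.13 to 0.20 between the control-EVs libraries, and over all 6 libraries it ranged from -0.58 to 0.38. The SD of the log2 normalized counts over the 6 libraries was 0.39, 0.37 and 0.28 for bta-miR-30d, bta-miR-30e-5p and bta-miR-30a-5p. Counting error of the recovered reads, which may be understated, alone gives 0.08, 0.10 and 0.11. For bta-miR-30b-5p and bta-miR-30f the SD was 0.72 and 0.53, where counting error alone gives 0.83 and 0.96, so that their spread was no larger than that of the counting.

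**Figure D5:**
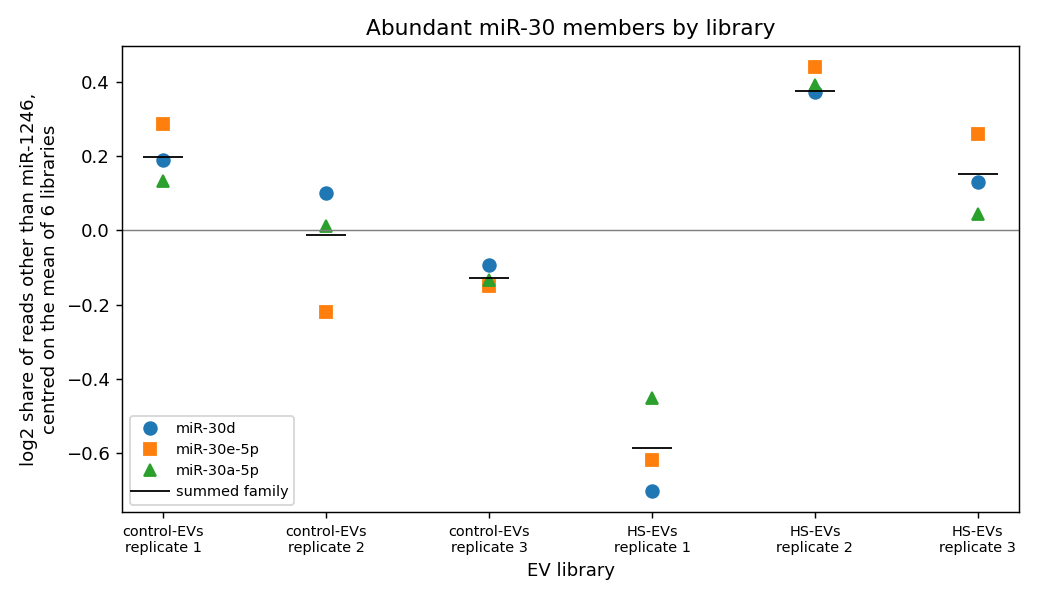
Log2 share of the reads other than bta-miR-1246, centred on the mean of the 6 libraries, for the 3 abundant members, with the summed family as a bar. All 3 members are lowest in HS-EVs replicate 1 and highest in HS-EVs replicate 2, and the control-EVs libraries lie between them.

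Among 125 other miRNAs with at least 10 reads in every library, the 5 whose profile over the 6 libraries lay nearest to the summed family were bta-miR-195, bta-miR-507-3p, bta-miR-450b, bta-miR-151-3p and bta-miR-140. Their root mean square distance from it was 0.14, 0.14, 0.19, 0.19 and 0.20 on the log2 scale, where the median of the 125 was 0.46. As the points share libraries and depth, this likeness is a description, and being chosen for a like profile, these miRNAs could not differ much from the family between the groups.

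For comparison, other families that also come from several genes were summed in the same way. The let-7 family with miR-98 (9 members) took 23.3% ± 2.37 of the reads other than bta-miR-1246 for control-EVs against 25.1% ± 2.21 for HS-EVs (SD, n = 3 each). The miR-26 family (2 members) took 0.992% ± 0.540 against 1.85% ± 0.572 (SD, n = 3 each). The log2 ratio of the summed normalized counts, HS-EVs over control-EVs, was -0.14 for the miR-30 family, 0.0028 for let-7 and 0.89 for miR-26, and no difference between families was tested. For miR-30 it was 0.13 without HS-EVs replicate 1.

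Markers of other tissues were present in the EV libraries of both groups, and their part in these results was not tested. As a share of the reads other than bta-miR-1246, the liver and serum marker bta-miR-122 took 8.70% to 15.5% in control-EVs and 5.32% to 9.72% in HS-EVs. The 3 red blood cell markers took 0.382% to 0.912% and 0.236% to 0.586%, and the 4 white blood cell markers 0.135% to 0.241% and 0.198% to 0.256%. The 3 striated muscle markers took 0.359% to 0.590% in control-EVs and 0.167% to 1.12% in HS-EVs, with the highest library again HS-EVs replicate 1, where the miR-30 family was lowest. The 5 epithelial markers stayed between 0.0058% and 0.013% in all libraries. The 3 pituitary and gonad markers together took 1.22% to 1.33% in control-EVs and 0.791% to 1.53% in HS-EVs, nearly all of it bta-miR-202, and bta-miR-383 had at most 1 read. This list too was highest in HS-EVs replicate 1. Among HS-EVs, bta-miR-122 and the red blood cell markers were also highest there, though control-EVs reached higher values. The white blood cell and epithelial markers were not highest there. The groups did not overlap in normalized count for 1 marker each of the white blood cell, epithelial and pituitary and gonad lists, beside 6.45% of all miRNAs. These were bta-miR-150 (18.1 to 29.4 in control-EVs, 31.9 to 66.8 in HS-EVs), bta-miR-429 (at most 3 reads in any library) and bta-miR-7 (33.5 to 51.4 in control-EVs, 53.4 to 102.7 in HS-EVs), named after their values were seen, and none was called by limma (adjusted p = 0.873, 0.870 and 0.873). No listed marker was at 0 in all libraries.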

How the data were processed

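Small RNA from 6 EV libraries was analysed, 3 control-EVs and 3 HS-EVs, grouped by their titles. Per the labels, the authors trimmed reads with cutadapt 1.11, mapped them with Bowtie2 2.2.2 to UMD3.1 and to miRBase, and normalized with TMM in edgeR. They deposited 1 normalized read count per miRNA and library, handled here as a non-negative signal. All values (100%) were whole multiples of 1 read (tolerance 0.001), and raw reads were recovered by division. The depth of a library is underestimated where its smallest value stands for several reads. It may also be overstated, since the recovered totals exceed the study's tally of miRNA reads in all 6 libraries, and read counts, floors and Wilson intervals carry that doubt.

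All 512 miRNAs were fitted with limma 3.58.1 (R 4.3.3) on log2(normalized count + 1) with Benjamini-Hochberg adjustment, a scale on which the change of scarce miRNAs is understated. Because the values are normalized, limma was the main test, and edgeR 4.0.16 and DESeq2 1.42.0 on recovered reads were alternatives. All were also run on simulated counts, and the outcome of that run is not reported here. Shares and ratios within the family were compared by exact permutation (scipy 1.17.1) over the 10 divisions of the libraries. Named were the members, bta-miR-1246, the 5 nearest profiles, sums of 2 other families and the marker lists. The members, lists and tests were chosen with earlier results of these data known. Log2 ratios within the MIR30C and MIR30E pair and the MIR30F and MIR30A pair were added after the gene table showed 1 gene per member.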

Additional observations from a re-analysis of the deposited data

How the results depend on the processing

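In none of the alternatives did a miR-30 member pass the study's threshold. Over all 512 miRNAs the number of calls rose from 0 to 3 with edgeR's quasi-likelihood test, to 2 with limma's mean-variance trend and to 1 with a pseudocount of 0.5, and it was 0 to 4 with each library left out in turn. It was 4 without control-EVs replicate 2, 2 without HS-EVs replicate 1 and 3 without HS-EVs replicate 2. The cause was not tested.

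Scaling by all reads turned the log2 fold changes of bta-miR-30b-5p (-0.80), bta-miR-30c (-1.23) and bta-miR-30f (-0.31) below 0 and moved that of the summed family to -1.68. On that scale the family was lowest in HS-EVs replicate 1 (0.0111% of all reads, against 0.199% to 0.457% in the other libraries). bta-miR-30e-5p turned to 0.054 when scaled by reads other than bta-miR-1246 and to 0.0066 with edgeR. With each library left out in turn, log2 fold changes ranged from -0.29 to 0.10 (bta-miR-30a-5p), -0.24 to 0.53 (bta-miR-30b-5p), -0.031 to 0.63 (bta-miR-30c), -0.44 to 0.073 (bta-miR-30d) and -0.24 to 0.26 (bta-miR-30e-5p), and that of the summed family from -0.32 to 0.13. On the summed reads of each group, the share of bta-miR-30a-5p differed by -0.258 percentage points (HS-EVs minus control-EVs) and the log2 ratio of bta-miR-30c to bta-miR-30e-5p was lower in HS-EVs (-0.023). With each library left out, these lay between -0.491 and 1.54 percentage points and between -0.29 and 0.89, and the share of bta-miR-30b-5p between -0.014 and 0.154 percentage points. The filter of 10 reads in 2 libraries removed bta-miR-30f.

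The replicate numbers are shared by both groups, but nothing states that they mark a common culture, and the correlation between the deviations of libraries that share a number was 0.14, 0.14 and 0.08. With the replicate block, which by construction leaves a mean difference as it is with 3 libraries against 3 (-0.14 for the summed family, -0.79, 0.11 and 0.24 in the same-numbered pairs), 0 miRNAs were called.

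Depth limits bta-miR-30b-5p (at most 12 reads) and bta-miR-30f (at most 5), and HS-EVs replicate 1 had 262 reads on the whole family.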
